A study of Mus musculus with 2 samples.

Results

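The genes S100a8, S100a9, S100a4, S100a6, S100a10, S100a11 and S100a13 encode small calcium-binding proteins of the S100 family and were followed across the white blood cells of mice after stroke. They were taken by name, as 7 of the 11691 genes in the count table, and each had UMIs in both libraries. A UMI is a molecular tag that lets 1 captured transcript be counted once. The table holds 6 other genes whose symbols begin with S100, and they are given only as background.

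S100 proteins carry a pair of EF-hand motifs, which bind calcium, and most act as dimers that expose a binding face for partner proteins once calcium is bound. S100a8 and S100a9 pair to form calprotectin, an abundant protein of the neutrophil cytosol that sequesters metal ions and, when released from activated or dying cells, acts as an alarmin through receptors such as Tlr4 and Ager. S100a4 is known for binding nonmuscle myosin, S100a6 for binding calcyclin-binding protein, and S100a10 and S100a11 for pairing with annexins at membranes, while S100a13 takes part in the release of proteins that lack a signal peptide.

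Blood myeloid cells of C57BL/6 mice were measured by droplet single-cell RNA sequencing with the 10x 3′ v2 kit. All mice had gone through a transient block of the proximal middle cerebral artery 24 h earlier, so no group without stroke is included here. The first library came from young mice, aged 2 to 4 months, and the second from aged mice of 18 to 24 months. Flow sorting on the surface proteins CD11b and Ly6G took CD11b+ cells with and without Ly6G. The share of each sorted fraction, the number of mice in a library and any filter the authors put on cells are not stated in the sources. With 1 library per age no test was possible: every statement compares libraries, not ages, and every interval is a 95% interval that covers counting error only.

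Depth was 6440664 UMIs over 1849 young cells (median 2022 per cell) and 13752454 UMIs over 3944 aged cells (median 2219). After removal of likely doublets, 1822 and 3820 cells were kept. Cell names are the labels that the authors deposited. Kept cells numbered 1133 young and 2628 aged for Neutrophil, 540 and 932 for Monocyte, 52 and 104 for cDC (conventional dendritic cells), 70 and 58 for NK, 14 and 41 for Fol B-cell, and 13 and 15 for Eryth-Neutro. The label Mast cell had 42 aged and 0 young cells. Of cell barcodes, 12 occur in both libraries.

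The labels were set beside marker genes. All 7 neutrophil, 8 monocyte and 8 NK markers were found in the cells of their own label in both libraries. In cells labelled cDC of the young library, Zbtb46, Clec9a and Xcr1 were at 0. Cells labelled Fol B-cell had 6 (young, Pax5 at 0) and 7 (aged) of 7 B cell markers, and the 8 monocyte markers summed to 4697 and 5719 CPM there, against 4637 and 3217 CPM for the B cell markers (CPM, counts per 1e6, is a gene's UMIs scaled to the total UMIs of the population). Cells labelled Mast cell held all 6 basophil markers of the table at a summed 7779 CPM, and 5 of 6 mast cell markers at 2541 CPM, with Cma1 at 0; Fcer1a, Ms4a2, Cpa3 and Gata2 stand in both lists. In cells labelled cDC, the 8 monocyte markers summed to 7634 and 4991 CPM, against 6111 and 6265 CPM for the 8 dendritic cell markers. How much monocyte RNA the cDC values hold was not tested. In cells labelled Eryth-Neutro, erythroid genes made up 886108 and 656286 CPM.

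The 7 genes lie on mouse chromosome 3 (GRCm38/mm10, GENCODE M21). S100a13 (90514435 to 90524581), S100a4 (90603771 to 90606045), S100a6 (90612882 to 90624181) and S100a8 (90668978 to 90670035) are on the plus strand, and S100a9 (90692632 to 90695721) is on the minus strand next to S100a8. S100a11 (93520488 to 93526287) and S100a10 (93555080 to 93564643) lie farther along on the plus strand. A pseudogene of S100a11 on chromosome 12 (S100a11-ps, 73961142 to 73961447) is not among the rows used here, so S100a11 counts could hold or lack reads that match it.

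The sequences just upstream are shown for 3 genes whose levels across populations stood at opposite ends below, S100a8 and S100a9 against S100a4. They come from RefSeq windows on GRCm38.p6, found for 6 of the 7 genes (all but S100a10), and are printed 5′ to 3′ on the gene's own strand, up to the first annotated base of the gene. Capitals mark a match to a motif searched on both strands: TATAAA (the TATA box), TTGCNNAA (C/EBP), GAGGAA (PU.1, whose other strand reads TTCCTC) and TTCNNNGAA (STAT). No match overlapped another.
S100a8, chr3:90668821-90668977, plus strand: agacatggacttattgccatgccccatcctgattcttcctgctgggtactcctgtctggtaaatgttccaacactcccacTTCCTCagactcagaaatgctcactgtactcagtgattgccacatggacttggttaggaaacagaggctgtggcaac
S100a9, chr3:90695722-90695971, minus strand: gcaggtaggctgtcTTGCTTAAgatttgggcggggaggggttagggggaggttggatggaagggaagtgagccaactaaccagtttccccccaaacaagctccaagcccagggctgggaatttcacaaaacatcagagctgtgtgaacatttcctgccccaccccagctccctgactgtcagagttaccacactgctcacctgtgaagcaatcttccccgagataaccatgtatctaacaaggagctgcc
S100a4, chr3:90603520-90603769, plus strand: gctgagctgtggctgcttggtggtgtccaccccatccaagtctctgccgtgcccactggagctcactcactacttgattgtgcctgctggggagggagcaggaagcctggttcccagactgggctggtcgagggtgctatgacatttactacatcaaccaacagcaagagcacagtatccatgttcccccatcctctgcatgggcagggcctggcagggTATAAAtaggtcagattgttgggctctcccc

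Over the 250 bases before the RefSeq start, S100a9 held 1 C/EBP match, TTGCTTAA, at 236 to 229 bases before the start. S100a8 held 2 PU.1 matches, at 170 to 165 and at 36 to 31 bases before the start, and a TATA box at 30 to 25. The last 2 of these lie beyond the printed stretch, inside a longer GENCODE model of the gene. S100a4 held a TATA box at 31 to 26 bases and S100a11 a PU.1 match at 153 to 148, while S100a6 and S100a13 held none of the 4 motifs. Of all 32851 windows of the same length, 12.4% held TATAAA, 9.56% TTGCNNAA, 23.3% GAGGAA and 7.02% TTCNNNGAA. A match is a string of letters and not a measured binding site.

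S100a8 and S100a9 were the 2 most abundant transcripts of all genes in both libraries, and neutrophils carried most of them. Together they made up 28.4% of all UMIs of young neutrophils and 35.4% of those of aged neutrophils, and the 7 genes together 30.1% and 37.4%. A young neutrophil held from 5 to 1128 S100a8 UMIs with a median of 279, and an aged one from 87 to 1712 with a median of 395. For S100a9 the range was 8 to 625 (median 188) in young cells and 86 to 1112 (median 285) in aged ones. Every neutrophil of both libraries had both transcripts, also after each cell was thinned to 500 UMIs.

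As levels, S100a8 stood at 171243 CPM in young and 207423 CPM in aged neutrophils. Monocytes held 16119 and 22612 CPM. The other labels ran from 4722 CPM in young cDC to 13230 CPM in aged NK cells, with Eryth-Neutro of the aged library apart at 49479 CPM. S100a9 was at 112690 and 146224 CPM in neutrophils. In monocytes it was at 5467 and 8644 CPM, which in the aged library is below the 11746 CPM of cells labelled NK. In the young library, the intervals of S100a9 overlapped between monocytes (5391 to 5543 CPM) and the few Eryth-Neutro cells (4355 to 5394 CPM), and again among NK, Fol B-cell and cDC.

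S100a6 and S100a11 were spread over neutrophils and monocytes. S100a6 was at 7113 and 9529 CPM in young and aged neutrophils and at 4083 and 4271 CPM in monocytes. S100a11 was at 9609 and 10871 CPM in neutrophils and at 2637 and 3682 CPM in monocytes. For both genes, neutrophils ranked first and monocytes second in each library, with intervals that did not overlap. Below them, cDC, Fol B-cell and NK lay between 748 and 3480 CPM, with overlap between some neighbours.

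S100a4 and S100a10 had the opposite order. S100a4 was at 1294 and 1297 CPM in monocytes and at 1354 and 1171 CPM in cDC, against 61.7 and 31.6 CPM in neutrophils. S100a10 was at 826 and 1455 CPM in monocytes and at 976 and 1456 CPM in NK cells, against 38.0 and 35.9 CPM in neutrophils. The highest S100a10 level was that of the cells labelled Mast cell, 1976 CPM (interval 1704 to 2279). S100a13 ran from 156 and 158 CPM in neutrophils to 374 and 366 CPM in NK cells, and most neighbours in that order overlapped. Eryth-Neutro cells held 3 and 2 UMIs of S100a13.

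**Figure D1:**
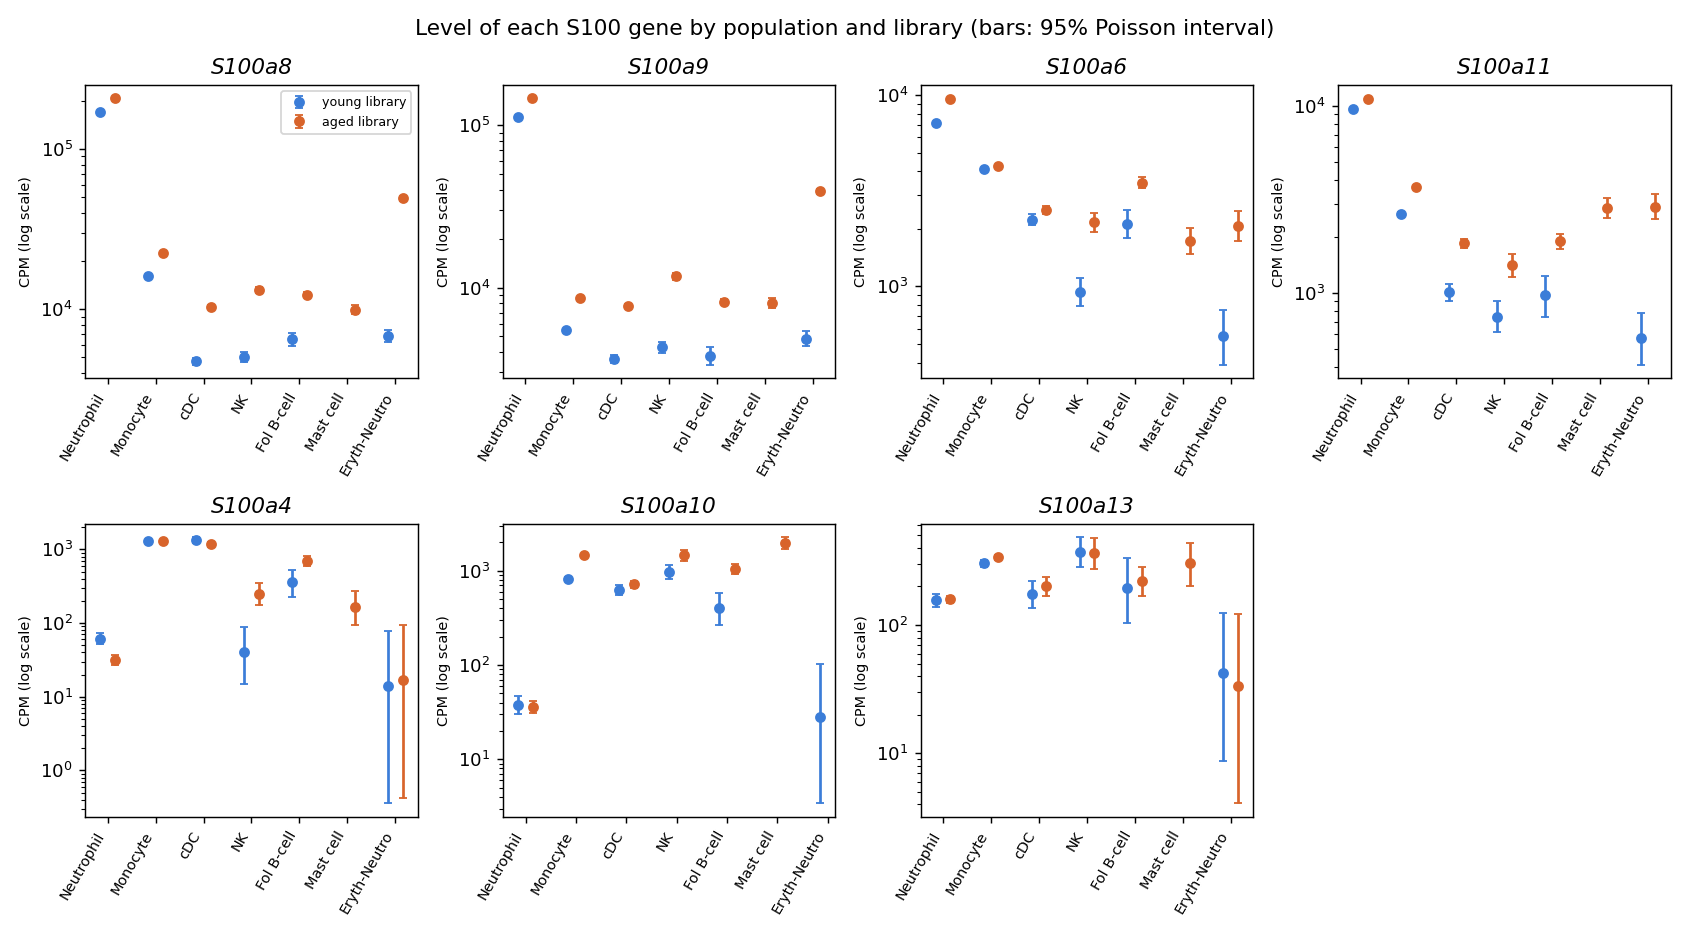
Level of each of the 7 genes, in CPM on a log axis, by population label (horizontal axis) and library (colour), with 95% Poisson intervals as bars. S100a8, S100a9, S100a6 and S100a11 are highest in neutrophils while S100a4 and S100a10 are higher in monocytes and cDC than in neutrophils; the young library had no cell labelled Mast cell, and S100a10 of aged Eryth-Neutro, at 0 UMIs, is not drawn.

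The share of cells with a UMI followed the same lines at equal depth. After thinning, 41.9% of young monocytes (37.7% to 46.1%) and 48.2% of aged ones (44.9% to 51.4%) had an S100a4 UMI. Among neutrophils the shares were 1.94% (1.22% to 2.93%) and 1.56% (1.12% to 2.11%). Unthinned shares were 95.2% and 95.9% of monocytes, at median depths of 6606.5 and 6401.5 UMIs, and 10.2% and 6.32% of neutrophils, at 1629 and 1900 UMIs. In NK cells, at 2000.5 and 2314 UMIs, they were 8.57% and 22.4% (2.86% and 6.90% after thinning). The young NK share after thinning has an interval of 0.348% to 9.94%, which includes that of young neutrophils, and the young level was 61.7 CPM in neutrophils against 40.1 CPM in NK cells. S100a4 in neutrophils is thus near the NK level in the young library, and whether NK cells express it was not tested. In the aged library it was at 31.6 CPM in neutrophils against 251 CPM (175 to 349) in NK cells. S100a10 was found in 28.5% and 45.4% of thinned monocytes and in 1.94% and 1.48% of thinned neutrophils.

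The levels of S100a8 and S100a9 went together over the 13 population by library sums of at least 10 cells (Pearson r 0.972 of log2(CPM + 50)). S100a8 and S100a11 followed at 0.924, S100a6 and S100a11 at 0.880 and S100a10 and S100a13 at 0.867, while S100a9 and S100a10 were at -0.626. These points share libraries and free RNA and are a description. Among 5383 genes, the levels most like those of S100a8 were Wfdc21 (0.989), Fpr2 (0.974) and Lrg1 (0.973), and those most like S100a9 were Retnlg (0.991), Mmp9 (0.983) and Klhdc4 (0.983). For S100a6 they were Bst1 (0.961), Marcks (0.956) and Txn1 (0.944), and for S100a11 Il1r2 (0.943), Pilra (0.942) and Cd44 (0.941). S100a4 was most like Dusp22 (0.975), Akr1a1 (0.968) and Tmem11 (0.966). S100a10 was most like Lgals1 (0.976), Blmh (0.976) and Smarca5 (0.970), and S100a13 was most like Myl12a (0.967), Zcrb1 (0.963) and Ndufb7 (0.956).

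S100a8 and S100a9 were found in nearly all cells labelled NK or Fol B-cell, so their level there was set beside that of other neutrophil transcripts. Neither gene is a transcript that NK or B cells are known for. An S100a8 UMI was present in 98.6% of young and 100% of aged NK cells, and in 88.6% (78.7% to 94.9%) and 96.6% (88.1% to 99.6%) after thinning. A young NK cell held from 0 to 31 S100a8 UMIs (median 10) and an aged one from 4 to 371 (median 13). For S100a9 the medians were 8 and 12 UMIs. Cells labelled Fol B-cell had medians of 15.5 and 36 S100a8 UMIs.

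The mean S100a8 count per young NK cell, 10.8 UMIs, was 3.54% (3.29% to 3.80%) of the mean per young neutrophil, and that of S100a9 was 4.54% (4.19% to 4.90%). The same percentage for 12 other neutrophil transcripts ran from 1.07% (Hdc) to 8.15% (G0s2), with a median of 3.97%. Retnlg, the most abundant of the 12 in neutrophils, was at 4.70%. In aged NK cells S100a8 was at 7.35% and S100a9 at 9.26%, and the 12 genes at 4.13% to 13.8% with a median of 9.14%. In cells labelled Fol B-cell, S100a8 and S100a9 were at 10.2% and 9.04% in the young library, with a reference median of 11.1%, and at 19.0% and 17.9% in the aged library, with a reference median of 25.2%. In NK cells both genes lay inside the range of the other neutrophil transcripts. That range is wide, so it cannot tell background from a low level of expression. S100a8 gave 54.2% (51.6% to 56.9%) and 53.0% (51.3% to 54.6%) of the UMIs of both genes in NK cells. The shares in neutrophils were 60.3% and 58.7%, and the cause of this difference was not tested. The mean of aged NK cells rests largely on 6 of 58 cells, which held 63.1% of the UMIs of both genes. Both genes also lay inside the range in cells labelled Fol B-cell, which was as wide as 0 to 23.8% in the young library. The 12 genes are not particular to neutrophils, with a median of 38.1% and 42.9% of the neutrophil mean in monocytes. Cells labelled Fol B-cell held monocyte markers at 4697 and 5719 CPM, against 1864 and 1599 CPM in NK cells. C1qa, C1qb, C1qc, Apoe and Mrc1 summed to 3191 and 4041 CPM in them. The same genes summed to 3356 and 3910 CPM in monocytes and to 140 and 136 CPM in NK cells. Which part of S100a8 and S100a9 in cells labelled Fol B-cell is free RNA and which is RNA of monocytes was not tested.

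S100a6 and S100a11 lay above that range in young NK cells, at 15.7% and 9.31% of the neutrophil mean. In aged NK cells they were at 26.3% and 14.9%, again above the highest reference gene. For S100a11, with 112 young and 196 aged UMIs in NK cells, the counting interval reaches down to the highest reference gene in each library. S100a11 is thus not set apart from that range, and that of S100a6 stays above it. S100a10 and S100a13 had more UMIs per NK cell than per neutrophil. A young NK cell held 2.09 S100a10 UMIs on average, against 0.0680 per neutrophil, and 0.800 S100a13 UMIs against 0.279.

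**Figure D2:**
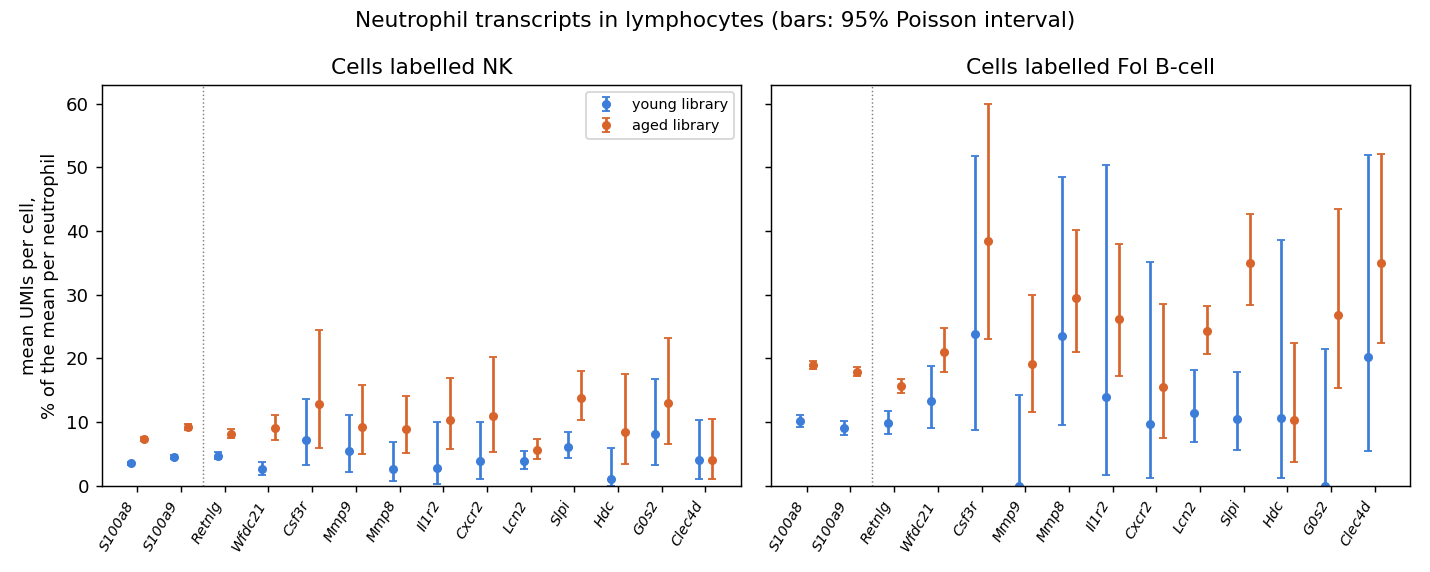
Mean UMIs per cell as a percentage of the mean per neutrophil of the same library (vertical axis) for S100a8, S100a9 and 12 neutrophil reference genes, in cells labelled NK (left) and Fol B-cell (right), with 95% Poisson intervals as bars and colour for the library. S100a8 and S100a9 lie within the spread of the reference genes in each library, and aged values are above young ones.

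Monocytes were set beside the NK cells of the same library. The median monocyte gave 0.860% (young) and 1.20% (aged) of its UMIs to S100a8, above the 0.50% and 0.559% of the median NK cell. For S100a9 the median monocyte, at 0.398% and 0.492% of its UMIs, was near the NK medians of 0.413% and 0.501%. In UMIs per cell, the measure used for NK cells above, the S100a9 medians were 26 and 32 in monocytes against 8 and 12 in NK cells. Monocytes were deeper, at medians of 6606.5 and 6401.5 UMIs against 2000.5 and 2314. Which of the 2 measures background follows was not tested. The 10% of monocytes with the highest S100a9 share began at 0.737% (young) and 1.92% (aged), and the same 10% of NK cells at 0.573% and 1.51%. Less the CPM of the median NK cell, the summed S100a8 level was 1.53 times as high in aged as in young monocytes. That of S100a9 was 2.72 times as high. No interval was computed, and a median over cells was here taken from a sum. For S100a9, 4130 and 5013 CPM were taken from 5467 and 8644 CPM, so the ratio rests on the remainders. The aged sum includes 45 monocytes of a cluster led by neutrophil genes, described below.

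**Figure D3:**
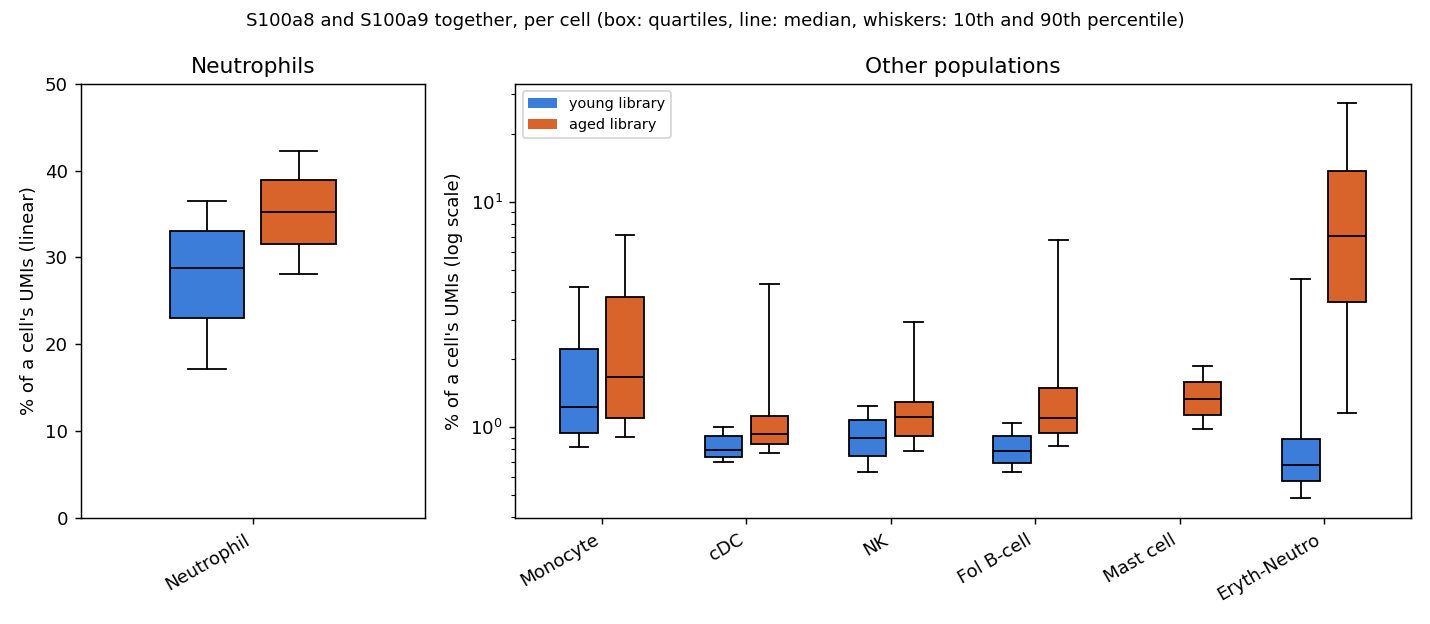
Percentage of a cell's UMIs taken by S100a8 and S100a9 together, by population and library (colour), on a linear axis for neutrophils (left) and a log axis for the other labels (right); boxes are quartiles, lines medians and whiskers the 10th and 90th percentiles. Median neutrophils are at 28.8% and 35.2%, median monocytes at 1.24% and 1.68% and median NK cells at 0.895% and 1.11%.

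The balance of the 2 calprotectin subunit transcripts differed between neutrophils and monocytes. S100a8 gave 60.3% (60.2% to 60.4%) of S100a8 and S100a9 UMIs in young neutrophils and 58.7% (58.6% to 58.7%) in aged ones. In monocytes it gave 74.7% (74.37% to 74.98%) and 72.3% (72.1% to 72.5%), or 2.95 and 2.62 S100a8 UMIs for each S100a9 UMI. A cluster of 47 monocytes (2 young, 45 aged) was led by neutrophil genes such as Retnlg and Mmp9, and without it the monocyte shares were 74.8% and 73.9%. Cells labelled NK had 54.2% (51.6% to 56.9%) and 53.0% (51.3% to 54.6%), and cDC 56.5% and 57.5%. The median single cell stood at 60% and 58.4% in neutrophils and at 69.3% and 69.2% in monocytes. The lower quartile of monocytes, at 59.7% and 58.2%, was near the neutrophil medians, so not every monocyte had the higher share. In the monocyte cluster led by Cd74, described below, 6176 S100a8 UMIs stood beside 3450 of S100a9 in young cells. In its aged cells 12268 stood beside 6812.

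**Figure D4:**
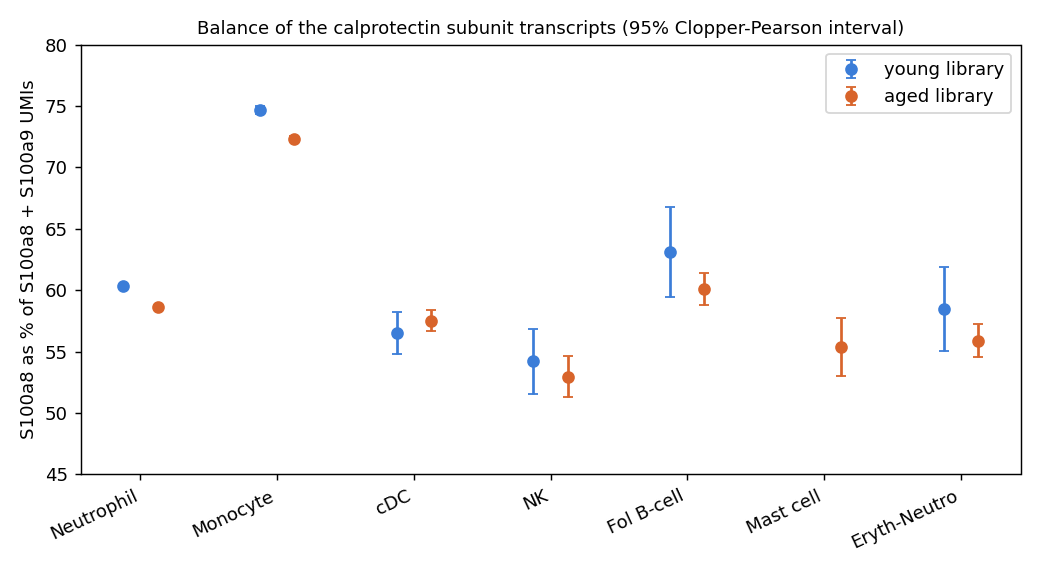
S100a8 UMIs as a percentage of S100a8 and S100a9 UMIs (vertical axis, drawn from 45% to 80%) by population label and library (colour), with 95% Clopper-Pearson intervals as bars. Monocytes, at 74.7% and 72.3%, stand above neutrophils, at 60.3% and 58.7%, and above each other label.

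Young and aged libraries were then compared gene by gene, counting a gene as apart when its CPM ratio was at least 1.5 or at most 1/1.5 and it had at least 50 UMIs. In neutrophils, S100a8 was 1.21 times as high in the aged library (1.21 to 1.22), S100a9 1.30 times (1.29 to 1.30), S100a6 1.34 times (1.32 to 1.36) and S100a11 1.13 times (1.11 to 1.15). None of these 4 was past 1.5-fold. S100a4 was at 0.512 times the young level (0.404 to 0.649), from 125 young and 173 aged UMIs, at levels near that of young NK cells. S100a10 (0.946, 0.723 to 1.25) and S100a13 (1.02, 0.892 to 1.16) had intervals that include 1.

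Of the 7 genes, 0 were higher and 1 was lower past 1.5-fold in aged neutrophils, where 3.79% of 4745 genes were higher and 20.3% lower. Their median log2 ratio was 0.18, against -0.24 over all genes. S100a8 and S100a9 are themselves a large share of the total, which lowers the CPM of all other genes when they are higher. With TMM scaling (a scaling that trims the most different genes), the median over all genes moved from -0.24 to 0.07, 10.3% of genes were higher and 6.98% lower, and S100a6 (1.66), S100a9 (1.61) and S100a8 (1.504) were past 1.5-fold. S100a10 and S100a13 stood at 1.17 and 1.26 on that scale, and S100a4 stayed below 1.

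**Figure D5:**
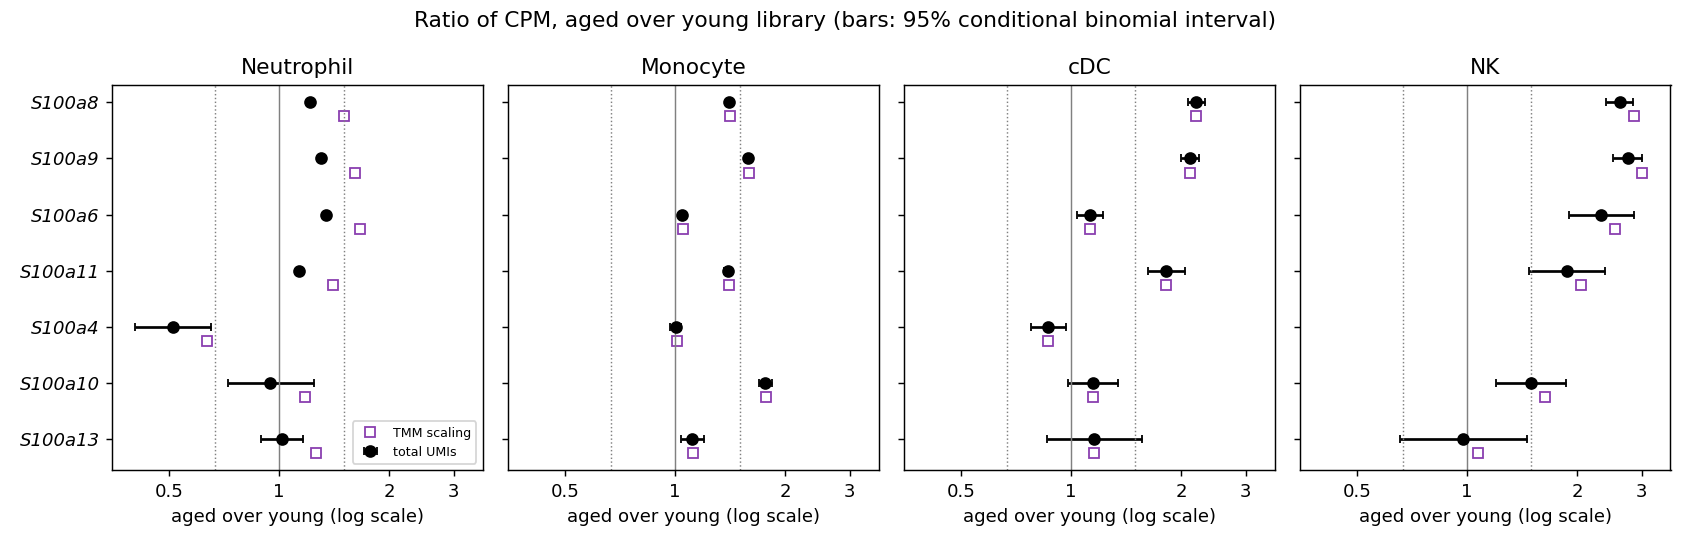
Ratio of CPM, aged over young library, on a log axis for each gene in neutrophils, monocytes, cDC and NK cells (black points, 95% conditional binomial intervals as bars) with the ratio after TMM scaling (open squares); dotted lines mark 1.5-fold. TMM moves the neutrophil ratios up and those of monocytes little; S100a4 in NK cells, under 50 UMIs, is not drawn.

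Neutrophils differed among themselves in these 2 genes. The share of S100a8 and S100a9 in a cell ran from 1.56% to 47.8% in young cells and from 10.7% to 53.8% in aged ones. The lowest 10% of young neutrophils, 114 cells at up to 17.2%, still held neutrophil transcripts: Csf3r, a growth factor receptor, was at 1537 CPM (958 in the others), Cxcr2, a chemokine receptor, at 942 CPM (811) and Retnlg at 23038 CPM (47609). In CPM, Csf3r and Cxcr2 were higher there, but the neutrophil markers together were lower, at a summed 27437 CPM against 52703 CPM in the others. The 8 monocyte markers summed to 2150 CPM there and to 3431 CPM in the others. Il1b, an inflammatory cytokine, was at 3569 against 1783 CPM. These cells had a median of 1404 UMIs against 1677. Their lower share of S100a8 and S100a9 (median 13.3% against 29.5%), by which they were chosen, in itself raises the CPM of all other genes. No CPM given here for the lowest 10% was corrected for this. Whether Csf3r, Cxcr2 or Il1b was higher apart from it was not tested. In aged neutrophils the lowest 10%, 263 cells at up to 28.1%, had Retnlg at 49330 against 64676 CPM and Il1b at 1905 against 910 CPM. Across young neutrophils thinned to 500 UMIs, S100a8 and S100a9 went together at r = 0.757 over 1133 cells, and across 2628 aged ones at 0.374, all of 1 library each.

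Neutrophils were also clustered with the S100 genes left out. The cluster led by Ngp and Camp, granule protein transcripts of immature neutrophils, held 163 young and 1476 aged cells and S100a8 at 215502 and 223857 CPM. The cluster led by Gm9843, Wdr89 and Lst1 held 875 young and 117 aged cells, with S100a8 at 161202 and 179632 CPM. In the cluster led by Ccl4 and Cd14 (63 and 936 cells) S100a8 was at 165899 and 182709 CPM, and in that led by the interferon-induced Isg15 and Ifit1 (25 and 40 cells) at 189531 and 192968 CPM. As most clusters are mainly of 1 library, a cluster may be that library and not a kind of cell.

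Within these 4 clusters the aged over young ratio of S100a8 was 1.04 to 1.11 in 3 and 1.02 (0.992 to 1.04) in the interferon cluster, against 1.21 over all neutrophils. S100a9 was 1.15 to 1.20 times as high in the aged library in all 4. S100a6 was 1.14 to 1.38 times as high in 3 and at 1.06 (0.941 to 1.20) in the interferon cluster. S100a11 ran from 0.967 (0.912 to 1.03) in the Ccl4 cluster to 1.30.

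In monocytes, S100a10, the partner of annexin A2, was at 826 CPM in young and 1455 CPM in aged monocytes, 1.76 times as high (1.69 to 1.84), with medians of 4 and 9 UMIs per cell. S100a9 was 1.58 times as high (1.56 to 1.61), and 1.40 times without the cluster led by neutrophil genes. S100a8 was 1.40 times as high (1.39 to 1.42), and 1.34 times without that cluster. S100a11 was also 1.40 times as high (1.36 to 1.43). S100a4 was at 1.00 (0.967 to 1.04), S100a6 at 1.05 (1.03 to 1.07) and S100a13 at 1.11 (1.04 to 1.20). S100a6 stood at 0.999 once ribosomal and mitochondrial genes were left out of the total. Of the 7 genes, 2 (S100a9 and S100a10) were past 1.5-fold higher and 0 lower, where 5.88% of 7778 genes were higher and 8.68% lower. Their median log2 ratio was 0.48, against 0.01 over all genes. With the NK level subtracted, the ratio of S100a9 was 2.72, without an interval and with the cluster led by neutrophil genes included. By the median cell, S100a10 (2.14) and S100a11 (1.63) were past 1.5-fold and S100a9 (1.23) was not.

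Among the 5 monocyte clusters, the highest S100a8 level, in the cluster led by neutrophil genes, was 5.27 times the lowest (2.86 times with the 4 clusters of a coarser resolution, 0.3). The cluster led by Cd74, H2-Aa, Apoe and Cx3cr1 (110 young, 181 aged cells) was lowest, at 7862 and 9526 CPM for S100a8 and 346 and 717 CPM for S100a10. The cluster led by the cell cycle genes Ccnb2 and Birc5 (16 and 151 cells) was at 19549 and 26933 CPM for S100a8 and at 1721 and 1810 CPM for S100a10. The cluster led by Saa3, Tppp3 and Spp1 held 7 young and 549 aged cells, with S100a8 at 23888 CPM and S100a10 at 1644 CPM over both. A cluster of 405 young and 6 aged cells, led by globin genes and Wdr89, was at 18145 CPM for S100a8 and 920 CPM for S100a10.

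Where a monocyte cluster had at least 10 cells of each library, S100a10 was 2.07 times as high in aged cells of the Cd74 cluster (1.81 to 2.38) but 1.05 times in the cell cycle cluster (0.901 to 1.23). S100a9 was 1.20 times as high in the first and 2.31 times in the second (2.095 to 2.55). S100a8 was 1.21 and 1.38 times as high. The ratio over all monocytes and the spread of aged and young cells over clusters cannot be told apart here, since 3 of 5 clusters hold nearly all their cells from 1 library.

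In the labels with fewer cells, sums and medians over cells gave different ratios. In cDC, S100a8 stood at 4722 CPM (young) and 10390 CPM (aged), 2.20 times as high (2.09 to 2.32), and S100a9 2.11 times. Yet the median cell held 34.5 and 34 S100a8 UMIs. The ratio of the median cell's level was 1.08 for S100a8 and 1.19 for S100a9. In the aged library, 15 of 104 cDC lay above the highest young cDC (1.79% of UMIs for both genes), and they held 57.3% of these UMIs. Those 15 cells had a median of 65 Retnlg UMIs, against 11 in the others.

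NK cells did the same. S100a8 was 2.61 (2.40 to 2.85) and S100a9 2.75 times as high in the aged library by sums, and 1.12 and 1.21 times by the median cell. Without removal of doublets the ratio of sums was 4.199 for S100a8 and 3.87 for S100a9. Of 58 aged NK cells, 6 lay above the highest young one (2.38%) and held 63.1% of S100a8 and S100a9 UMIs. Their median was 36.5 Retnlg UMIs, against 4 in the others. S100a6 was 2.32 times as high by sums and 2.64 times by the median cell, and S100a11 1.88 and 1.12 times. T cell markers also summed to 60.1 CPM in young and 588 CPM in aged NK cells. The part of this in S100a6 was not tested.

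Cells labelled Fol B-cell had 7 of 41 aged cells above the highest young one, with 54.3% of the UMIs of both genes and a median of 44 Retnlg UMIs against 9.5. In cDC 3 of 7 genes were past 1.5-fold higher (S100a8, S100a9 and S100a11), where 9.31% of 2504 genes were. In NK cells the count was 4 of 6 measured (S100a8, S100a9, S100a6 and S100a11), where 5.73% of 698 genes were. By the median cell, S100a11 alone stayed past 1.5-fold in cDC and S100a6 alone in NK cells. In Fol B-cell it was 6 of 7, where 29.9% of 799 genes were, and by the median cell S100a8 (1.23) and S100a6 (1.45) were not past 1.5-fold. S100a4 had no ratio by the median cell there, as its young median was 0. The count was 4 of 4 measured in Eryth-Neutro, where 69.4% of 72 genes were. No member was past 1.5-fold lower in these labels, where 5.95%, 11%, 8.51% and 8.33% of genes were. In Eryth-Neutro the neutrophil markers summed to 2800 and 18977 CPM, beside S100a8 at 6838 and 49479 CPM.

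Genes that work with these proteins were read from lists with at least 20 UMIs, in neutrophils and monocytes only. At that count, 5.78% of neutrophil genes were past 1.5-fold higher and 24.8% lower, and 7.44% and 11.2% of monocyte genes. Among 11 binding partners and substrates, 1 was higher (Tgm2) and 1 lower (Anxa6) in aged neutrophils, and 1 higher (Tgm2) and 1 lower (Myh9) in monocytes. Anxa2, the partner of S100a10, was 1.08 times as high in aged neutrophils and 1.38 times (1.32 to 1.43) in aged monocytes, where it was at 963 and 1326 CPM. Myh9, the heavy chain of the nonmuscle myosin that S100a4 binds, was at 121 (young) and 63.1 CPM (aged) in monocytes, or 0.523 times the young level (0.456 to 0.600). Anxa1 was 1.34 times as high in neutrophils and 1.46 times in monocytes.

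Among receptors and their adaptors, 2 of 13 were higher (Cd14, Ager) and 2 lower in aged neutrophils, Alcam (0.585, 0.413 to 0.835) and Mcam (0.542, 0.269 to 1.12), of which the interval of Mcam includes 1. Cd14, a co-receptor of Tlr4, stood at 265 CPM (young) and 479 CPM (aged), 1.81 times as high (1.64 to 1.98), while Tlr4 itself was at 28.1 and 28.3 CPM. Ager, the receptor for advanced glycation end products, rested on 5 and 24 UMIs (1.77, 0.664 to 5.96). In monocytes 1 of 12 was higher (Cd69) and 1 lower (Cd36, a scavenger receptor, 0.341). Of 6 NADPH oxidase subunits, the enzyme that S100a8 and S100a9 help to activate, 0 were past 1.5-fold in neutrophils. In monocytes Cybb, its catalytic subunit, was at 498 and 297 CPM (0.596, 0.559 to 0.636) and the other 5 were within 1.5-fold.

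Of 9 transcription factors of myeloid cells, 0 were higher and 2 lower in aged neutrophils, Klf4 (0.534, 0.211 to 1.42) and Atf3 (0.409, 0.209 to 0.804), and the interval of Klf4 includes 1. Cebpb, a C/EBP factor, was at 1898 and 1807 CPM, and Spi1, which encodes PU.1, at 1337 and 1123 CPM. In monocytes Hif1a was higher (1.57, 1.34 to 1.83) and Klf4 lower (0.640, 0.565 to 0.727). Of the other S100 genes, S100a1 was at 71.8 and 103 CPM in monocytes and at 11.3 and 10.2 CPM in neutrophils.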

How the data were processed

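The deposited table holds raw UMI counts per gene and cell, with a library and a population name for each cell given by the authors. Cell Ranger 2.1.1 and build mm10 are listed in the submitters' processing notes, and the labels name the 10x 3′ v2 kit. Of the deposited cells, 0 fell under 200 genes or 500 UMIs or above 10% mitochondrial UMIs. Doublets were scored with scrublet in scanpy 1.11.5. Its own threshold called 4 young and 0 aged cells, so the highest scores were removed at 8 per 1000 cells for each 1000 cells, 27 young (1.46%) and 124 aged (3.14%).

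Counts were summed over the cells of a population and library and scaled to CPM by their total. All intervals are at 95%: Poisson for sums, conditional binomial for ratios, Clopper-Pearson for shares. PCR copies are merged by UMI, and the intervals cover counting error only. Since 3′ tags are counted, a level does not depend on transcript length. No test was run. Single genes needed 50 UMIs over both libraries and listed genes 20. Cells were thinned at random to 500 UMIs. Monocytes and neutrophils were clustered with Leiden (10000 counts per cell, 2000 variable genes without S100 genes, 30 components, 15 neighbours, resolution 0.5). TMM factors came from edgeR 4.0.16. The reference genes for free RNA were Retnlg, Wfdc21, Csf3r, Mmp9, Mmp8, Il1r2, Cxcr2, Lcn2, Slpi, Hdc, G0s2 and Clec4d. The ratio code was tested on simulated data.

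Named genes are the 7 members, the other S100 genes, lists of partners, receptors, oxidase subunits and transcription factors, and for each member the 3 genes with the highest correlation of log2(CPM + 50) among genes with at least 200 UMIs. The members and lists were chosen with earlier results of these data known. Leading genes of clusters, Il1b and the other genes of the low-share neutrophils were picked after their values were seen. Alternatives were other totals and scalings, other filters on cells, doublets and genes, other thinning depths and other cluster resolutions. Added after the data were seen were values without the clusters led by neutrophil or platelet genes, values less the NK level, ratios within clusters, ratios of medians over cells, and the cells above the highest young cell.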

Additional observations from a re-analysis of the deposited data

Results flagged for a closer look

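S100a4 stood on opposite sides of 1 in different populations when the aged library was set against the young one. The ratio was 1.95 in cells labelled Fol B-cell (interval 1.27 to 3.11, from 24 and 190 UMIs), 0.512 in neutrophils (0.404 to 0.649, from 125 and 173 UMIs) and 0.865 in cDC (0.775 to 0.967, from 528 and 843 UMIs). The differences between these ratios were not tested, since each age has 1 library. The share of thinned neutrophils with an S100a4 UMI was 1.94% and 1.56%, against 2.86% (interval 0.348% to 9.94%) and 6.90% of NK cells. The young level was 61.7 CPM in neutrophils against 40.1 CPM in NK cells, from 6 UMIs in the latter. The aged level was 31.6 CPM in neutrophils against 251 CPM (175 to 349) in NK cells, from 35 UMIs in the latter. Cells labelled Fol B-cell also held 8 of 8 monocyte markers, at a summed 4697 and 5719 CPM.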

How the results depend on the processing

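No paired analysis was possible because the groups hold 1 library each and share fewer than 2 replicate numbers, and for the same reason no library could be left out. In neutrophils, 1 member (S100a6) was at least 1.5-fold higher once S100a8, S100a9 and Retnlg were left out of the total, and 3 with TMM, while 0 were lower after thinning to 500 UMIs, where S100a4 stood at 0.803. Under TMM, 491 of all neutrophil genes were higher and 331 lower, against 180 and 962, and 75 NK genes were higher, where the median of all NK genes moved from 0.00 to 0.13. In monocytes 1 member (S100a10) was higher without the cluster led by neutrophil genes. In NK cells 1 member (S100a13) was lower after thinning. By the median cell, 1 member was higher in cDC and 1 in NK cells, and neutrophils gave no count because the median of S100a4 was 0.

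The UMI minimum moved the counts of all genes. With at least 20 UMIs, higher and lower genes numbered 377 and 1615 in neutrophils, 694 and 1046 in monocytes, 666 and 510 in cDC and 179 and 338 in NK cells. With at least 200 UMIs they numbered 50 and 356, 181 and 212, 22 and 29, and 10 and 7. With any UMI in both libraries they numbered 684 and 3011, 919 and 1566, 1686 and 1979, and 1436 and 1970.

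Without removal of doublets, the mean per NK cell was 12.2 (young) and 60.7 (aged) S100a8 UMIs and 10.2 and 46.8 S100a9 UMIs. In cells with at most 1 UMI of each reference gene, S100a8 was at 7.25 and S100a9 at 8.75 in 8 young NK cells, and S100a8 and S100a9 were at 22 and 15 in 1 aged NK cell, 4 and 4 in 1 young cell labelled Fol B-cell and 17 and 14 in 1 aged one. The highest over the lowest S100a8 level among monocyte clusters was 2.86 at resolution 0.3, against 5.27, and that of S100a4 among neutrophil clusters 4.21 at resolution 1, against 2.23.

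S100a6 changed sides of 1 in monocytes, to 0.999 without ribosomal and mitochondrial genes in the total, and in cDC, to 0.725 after thinning. The cause was not tested for any of these changes. Over the alternatives, S100a8 ran from 1.15 to 1.504 and S100a9 from 1.25 to 1.61 in neutrophils, and S100a10 from 1.68 to 2.14 in monocytes. Among the values of single genes, 456 stayed within their counting interval, 292 moved and 2 changed sides. S100a4, S100a10 and S100a13 averaged under 1 UMI per neutrophil in both libraries. In the Eryth-Neutro cells, a filter of at least 500 genes left too few cells for a value.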
